A study of Mus musculus with 25 samples.

Results

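Retinoic acid reaches a retinal cell through a short chain of proteins, and 9 genes of that chain were followed here through mouse retinal development. They were chosen by name, for their roles, from the 28446 genes of the deposited RNA table: the retinol uptake receptor Stra6, the synthesis enzymes Aldh1a1, Aldh1a2 and Aldh1a3, the binding proteins Crabp1 and Crabp2, the receptor Rarb, and the breakdown enzymes Cyp26a1 and Cyp26c1. All 9 were found in the RNA table and in the chromatin tables, and 8 of the 9 passed the filter on low RNA values that testing required.

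Vitamin A circulates as retinol, which cells oxidise to retinaldehyde and then, by the Aldh1a enzymes, irreversibly to retinoic acid. Retinoic acid enters the nucleus and binds receptors of the Rar and Rxr families, which sit on DNA and switch target genes, while Cyp26 enzymes oxidise and remove it. In the embryonic mouse retina the synthesis enzymes are known to lie in dorsal and ventral domains with Cyp26 enzymes in a band between them.

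All libraries came from retinal cells of CD1 mice that had been sorted by green fluorescent protein (GFP). In the labels the GFP+ fraction stands for retinal progenitor cells and the GFP- fraction for post-mitotic retinal cells, and the reporter that carries GFP is not named. RNA was sequenced in 12 libraries, with 2 GFP+ and 2 GFP- libraries each at embryonic day 14 (E14), at E18 and at postnatal day 2 (P2). ATAC-seq, which counts cuts by a transposase in accessible DNA, was done on GFP+ cells alone in 13 libraries, 1 at E10 (labelled as day 10/11) and 2 at each of 6 later stages: E12.5, E14, E16.5 and E18 before birth, P0 and P2 after it. Nothing in the labels says that the replicates came from different animals, so the p-values reflect the spread between these samples alone, and in bulk RNA fewer cells of a type and less RNA per cell cannot be told apart.

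RNA values are FPKM, fragments scaled to transcript length and library size, at a read depth that is unknown. Both E14 libraries numbered 2 stand apart. Summed FPKM of 14 lens genes was 138 in E14 GFP+ replicate 2 and 5122 in E14 GFP- replicate 2, against 0.697 to 5.38 in the other 10 libraries. The same 2 libraries held 40.6 and 262 FPKM over 11 pigment epithelium genes, against 1.18 to 8.58 FPKM elsewhere, with Rpe65, an enzyme of mature pigment epithelium, at 0 in both. A list of 14 progenitor genes summed to 2521 FPKM in the library labelled E14 GFP- replicate 2, against 519 FPKM in E14 GFP- replicate 1, and a list of 13 ganglion cell genes to 79.3 against 6395 FPKM, so replicate 2 goes against its post-mitotic label. E14 GFP- replicate 1 alone stands for E14 GFP- cells where both libraries numbered 2 are left out. It held 1420 FPKM over 8 erythroid genes, against 293 FPKM in E14 GFP- replicate 2 and 0.566 to 86.8 FPKM in the remaining libraries. The part of these other cells in the results was not tested. Differences of the 9 genes that involve E14 are given with and without both E14 libraries numbered 2 where they are at least 1 in log2. At E18 and P2 the progenitor list followed the labels, at 4356 and 4768 FPKM in E18 GFP+ cells against 1557 and 1750 FPKM in E18 GFP- cells, and at 2616 and 3350 FPKM in P2 GFP+ cells against 1800 and 1232 FPKM in P2 GFP- cells. The 4 E18 libraries also differ from the others in make-up, with 2.61% to 9.57% of FPKM on histone genes against 0.0338% to 0.0572% elsewhere, which cannot be told apart from age in any comparison of E18 with another age.

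The binding proteins ran apart. Crabp1, which holds retinoic acid in the cytoplasm, was low in progenitors and high in post-mitotic cells at E18 and P2, and the distance between the sorts was the largest of the 8 tested genes at both ages. Crabp2, which carries retinoic acid to its receptors, read lower at P2 than at E14 in both sorts. That difference was called in GFP- cells alone, and the call was lost in 11 of 20 alternatives. The uptake receptor Stra6 read lower in GFP+ than in GFP- cells at E18 and P2, while the tested genes for synthesis and breakdown read higher in GFP+ cells at E18, in both cases without passing the test.

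Crabp1 RNA read 9.19 and 12.05 FPKM in E18 GFP+ cells, against 109.7 and 124.7 FPKM in E18 GFP- cells. At P2 it read 3.87 and 7.28 FPKM in GFP+ cells, against 253 and 190.0 FPKM in GFP- cells. The sorts did not overlap at either age. The log2 difference of GFP+ from GFP- cells, on the scale of log2(FPKM + 1) used for every RNA difference, was -3.35 ± 0.64 at E18 (SE, as for all log2 values; limma, adjusted p = 0.0364) and -5.12 ± 0.64 at P2 (limma, adjusted p = 0.00943). Crabp1 was the 1 gene called among the 8 tested at each of these ages. Over all 14276 tested genes, 3.61% were called at E18 and 1.49% at P2. The E18 call was lost when any 1 of the 8 E18 and P2 libraries was left out (limma, adjusted p = 0.0628 to 0.226) and with a block for the replicate number, and without both E14 libraries numbered 2 the adjusted p was 3.52e-05. Lists of post-mitotic cell genes moved with it. The 13 amacrine cell genes summed to 292 and 310 FPKM in E18 GFP+ cells against 846 and 908 FPKM in E18 GFP- cells, and to 220 and 263 FPKM in P2 GFP+ cells against 1062 and 720 FPKM in P2 GFP- cells. The 13 ganglion cell genes summed to 55.5 and 58.1 FPKM in E18 GFP+ cells against 957 and 1130 FPKM in E18 GFP- cells, and to 23.9 and 24.2 FPKM in P2 GFP+ cells against 168 and 129 FPKM in P2 GFP- cells. The horizontal cell, photoreceptor and bipolar cell lists were also lower in both GFP+ libraries than in both GFP- libraries at E18 and P2. The lists share genes, with Isl1 in the ganglion and bipolar cell lists and Tfap2b and Ptf1a in the amacrine and horizontal cell lists. Of 8 bipolar cell genes, 2 to 3 reached 1 FPKM in these libraries. The part of the listed cell types in the Crabp1 difference was not tested. The P2 call was lost without P2 GFP+ replicate 1, P2 GFP+ replicate 2 or P2 GFP- replicate 2, where limma's adjusted p was 0.1004, 0.0722 and 0.0649, and with the block.

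At E14 the Crabp1 libraries overlapped, with 22.9 and 113.7 FPKM in GFP+ cells beside 86.0 and 52.0 FPKM in GFP- cells. The replicates numbered 1 alone had 22.9 FPKM in GFP+ cells against 86.0 FPKM in GFP- cells, which is the same order as at the later ages. Between ages the values of Crabp1 ran in opposite directions by sort. In GFP+ cells both P2 libraries lay below both E14 libraries (log2 -3.04 ± 0.64; limma, adjusted p = 0.0682), and in GFP- cells both lay above (log2 1.70 ± 0.64; limma, adjusted p = 0.155). Neither passed the test over all genes. They were -1.91 ± 0.31 in GFP+ cells and 1.34 ± 0.31 in GFP- cells without both E14 libraries numbered 2, and both then passed (limma, adjusted p = 0.00934 and 0.00881). The change of the sort difference from E18 to P2, tested as an interaction, was -1.76 ± 0.90 (limma, adjusted p = 0.9996), and it called 0 of the 8 genes and 0.0981% of all genes.

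The Crabp1 promoter is shown because it belongs to the gene with the clearest difference between the sorts. These are the 250 bases upstream of its start in RefSeq (build GRCm38.p6, chr9:54764498-54764747, plus strand), with each match to GGGCGG, the core of the binding site of Sp1-type factors, in capitals on either strand.
Crabp1: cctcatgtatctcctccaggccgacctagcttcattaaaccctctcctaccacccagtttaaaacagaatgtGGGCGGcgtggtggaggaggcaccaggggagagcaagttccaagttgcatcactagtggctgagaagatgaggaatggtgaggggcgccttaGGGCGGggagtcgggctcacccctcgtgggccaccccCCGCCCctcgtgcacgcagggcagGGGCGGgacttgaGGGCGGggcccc
It holds 5 matches, and 32.7% of the 32851 promoters read from RefSeq hold at least 1. The share of promoters with as many as 5 was not counted. The match is a description of these letters and not of a factor's binding.

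**Figure D1:**
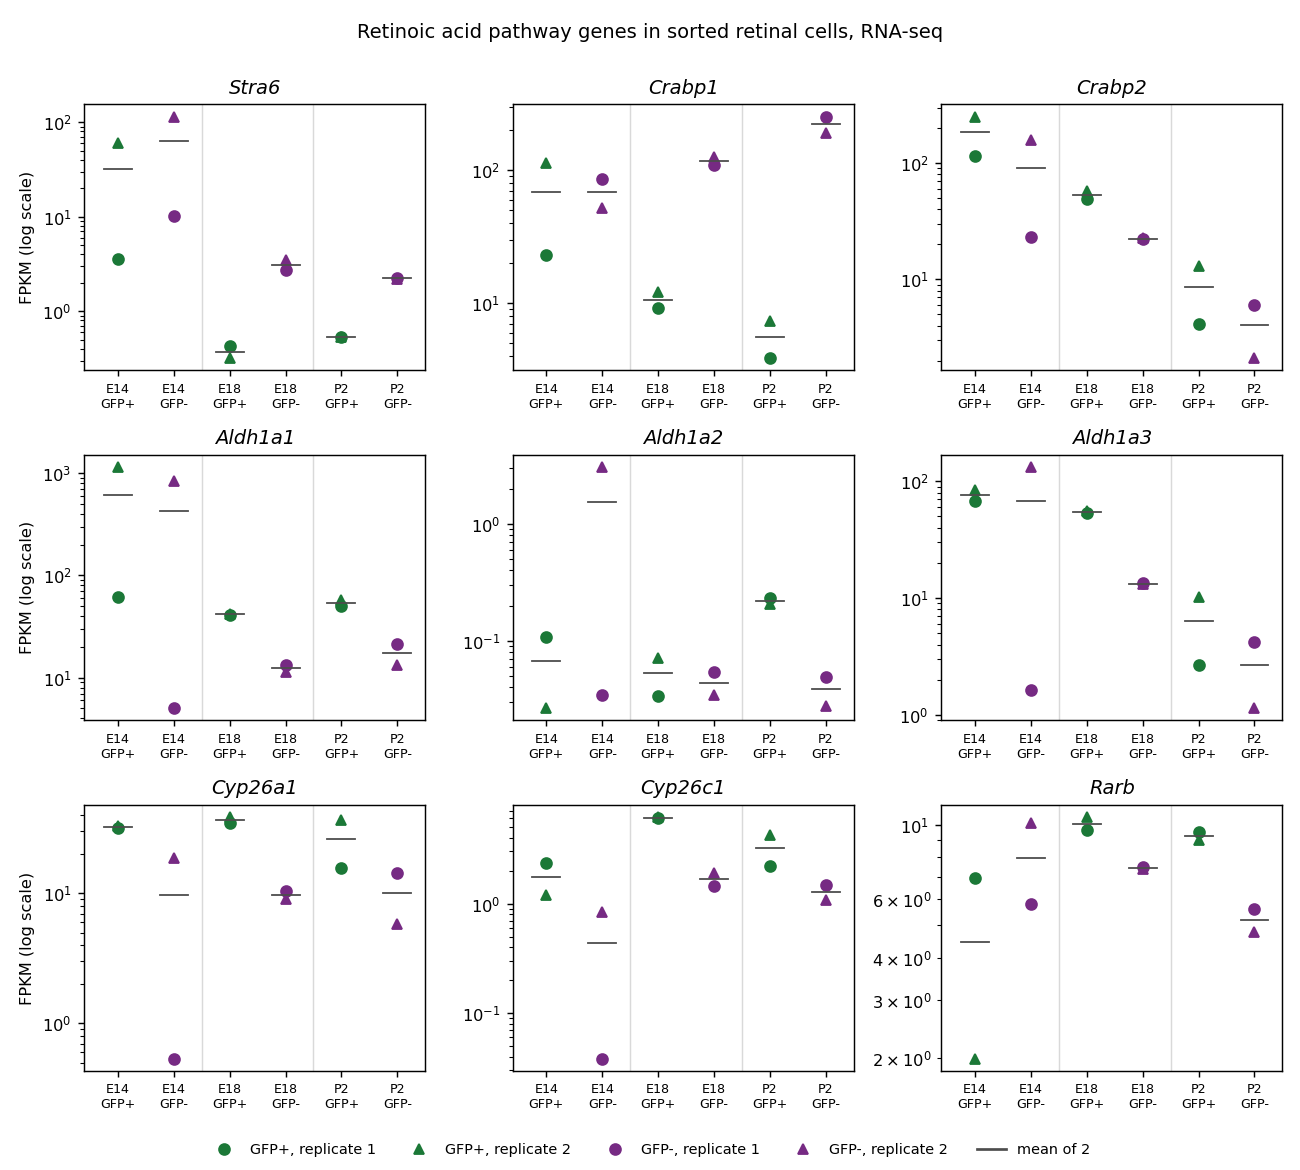
FPKM of the 9 genes in each of the 12 RNA libraries by age and sort, on a log axis; each point is 1 library. Crabp1 in GFP+ cells lies at 3.87 to 12.05 FPKM at E18 and P2, against 109.7 to 253 FPKM in GFP- cells, and Aldh1a2 stays under 1 FPKM in 11 of 12 libraries.

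Crabp2 had 115 and 252 FPKM at E14, 49.4 and 57.2 FPKM at E18, and 4.11 and 13.1 FPKM at P2 in GFP+ cells. In GFP- cells it had 23.2 and 158 FPKM at E14, 22.1 and 22.5 FPKM at E18, and 6.06 and 2.11 FPKM at P2. In both sorts the P2 libraries lay below those of either earlier age. In GFP- cells E14 replicate 1 lay near the E18 values, at 23.2 against 22.1 and 22.5 FPKM. P2 cells differed from E14 cells by -3.72 ± 0.86 in log2 among GFP- cells (limma, adjusted p = 0.0401) and by -4.34 ± 0.86 among GFP+ cells, where the test was not passed (limma, adjusted p = 0.0592). Crabp2 in GFP- cells was 1 call among 8 genes, where 6.84% of all genes were called, and in GFP+ cells 0 of 8 were called, against 1.15% of all genes. The GFP- call was lost with only the libraries of the contrast, with a block for the replicate number and without the filter on low values. In these settings limma's adjusted p was 0.462, 0.227 and 0.0651. With both E14 libraries numbered 2 left out, the GFP- difference was -2.37 ± 0.59 (limma, adjusted p = 0.0119), and the GFP+ one was -3.78 ± 0.59 (limma, adjusted p = 0.00782). The GFP- call was lost when any 1 of the 8 E18 and P2 libraries was left out, with limma's adjusted p between 0.0587 and 0.286.

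Both sorts at E18 were clear of each other for Crabp2, with GFP+ higher (log2 1.22 ± 0.86; limma, adjusted p = 0.348), and at P2 they overlapped. Against E18, the P2 value was lower by a log2 of -2.68 ± 0.86 in GFP+ cells (limma, adjusted p = 0.105) and by -2.31 ± 0.86 in GFP- cells (limma, adjusted p = 0.132). Of the 8 genes, 0 were called between P2 and E18 in either sort, where 7.98% of all genes were called in GFP+ cells and 11.1% in GFP- cells.

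Stra6 carries retinol into the cell from its plasma binding protein. It had 0.428 and 0.320 FPKM in E18 GFP+ cells against 2.72 and 3.48 FPKM in E18 GFP- cells. At P2 it had 0.530 and 0.534 FPKM in GFP+ cells against 2.264 and 2.18 FPKM in GFP- cells. The sorts did not overlap at either age, and the log2 differences of -1.57 ± 1.25 at E18 (limma, adjusted p = 0.403) and -1.07 ± 1.25 at P2 (limma, adjusted p = 0.692) did not pass the test. At E14 it read far higher in the replicates numbered 2, at 3.60 and 61.0 FPKM in GFP+ cells beside 10.2 and 115 FPKM in GFP- cells. Without both E14 libraries numbered 2, limma's SE was 0.15 at E18 and P2, and Stra6 was called at both ages (limma, adjusted p = 0.000112 and 0.00153). Against E14, P2 read lower in GFP+ cells (log2 -3.46 ± 1.25; limma, adjusted p = 0.254) and in GFP- cells (log2 -3.48 ± 1.25; limma, adjusted p = 0.140). Without both E14 libraries numbered 2 they were -1.59 ± 0.19 and -1.79 ± 0.19 (limma, adjusted p = 0.00238 and 0.000165).

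The synthesis enzymes differed widely in RNA level. Aldh1a1, which in the mouse eye marks the dorsal retina, averaged 192 FPKM over the 12 libraries, the highest of the 9 genes, and 31.5 FPKM over the 10 without both E14 libraries numbered 2, where Crabp1 was highest at 81.9 FPKM. Aldh1a2, known from the tissue around the eye, was lowest either way, at 0.329 and 0.0852 FPKM. Aldh1a1 had 60.9 and 1148 FPKM in E14 GFP+ cells against 5.01 and 843.8 FPKM in E14 GFP- cells. At E18 it had 41.1 and 41.8 FPKM in GFP+ cells against 13.2 and 11.5 FPKM in GFP- cells, and at P2 49.8 and 56.9 FPKM against 21.3 and 13.3 FPKM. The sorts were clear of each other at E18 and P2, with log2 differences of 1.67 ± 2.04 (limma, adjusted p = 0.590) and 1.60 ± 2.04 (limma, adjusted p = 0.717), and overlapped at E14. Against E14, P2 read lower by log2 -2.30 ± 2.04 in GFP+ cells (limma, adjusted p = 0.702) and -1.996 ± 2.04 in GFP- cells (limma, adjusted p = 0.610). With both E14 libraries numbered 2 left out these were -0.19 ± 0.24 (limma, adjusted p = 0.695) and 1.57 ± 0.24 (limma, adjusted p = 0.00119), so that in GFP- cells the direction turned and the test was passed. In the same setting the sort differences had an SE of 0.20 and adjusted p from limma of 0.000295 at E18 and 0.000780 at P2.

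A list of 8 dorsal retina genes, which does not hold Aldh1a1, summed to 147 FPKM in E14 GFP+ replicate 1 and 307 FPKM in replicate 2. In E14 GFP- cells it summed to 75.3 FPKM in replicate 1 and 261 FPKM in replicate 2. The 9 genes of the ventral list lay between 127 and 144 FPKM in all 4 libraries. Higher dorsal levels went with the replicates in which Aldh1a1 was high, and their part in the Aldh1a1 values was not tested.

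Aldh1a3, the enzyme of the ventral retina, had 67.5 and 84.5 FPKM in E14 GFP+ cells against 1.64 and 133 FPKM in E14 GFP- cells. At E18 it had 53.3 and 56.0 FPKM in GFP+ cells against 13.4 and 13.1 FPKM in GFP- cells, which did not overlap (log2 1.97 ± 1.48; limma, adjusted p = 0.377). At P2 both sorts were low and overlapped, with 2.66 and 10.1 FPKM in GFP+ cells beside 4.19 and 1.14 FPKM in GFP- cells. The P2 libraries lay below the E18 libraries in both sorts, at log2 -3.12 ± 1.48 in GFP+ cells (limma, adjusted p = 0.262) and -2.10 ± 1.48 in GFP- cells (limma, adjusted p = 0.426). Without both E14 libraries numbered 2 these 2 differences passed the test (limma, adjusted p = 0.00309 and 0.0136). The interaction of sort and age from E18 to P2 was -1.03 ± 2.097 (limma, adjusted p = 0.9996). Set against E14, P2 differed by -3.58 ± 1.48 in GFP+ cells (limma, adjusted p = 0.325) and by -2.50 ± 1.48 in GFP- cells (limma, adjusted p = 0.364). The same differences without both E14 libraries numbered 2 were -3.42 ± 0.64 (limma, adjusted p = 0.0165) and 0.33 ± 0.64 (limma, adjusted p = 0.703).

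Aldh1a2 did not reach the 1 FPKM in 2 libraries that testing required. It had 0.0265 to 0.231 FPKM in 11 libraries and 3.07 FPKM in E14 GFP- replicate 2. That is the library with 218 FPKM over 12 mesenchyme genes, against 2.44 to 11.7 FPKM in the other 11, and the part of such cells in its Aldh1a2 value was not tested.

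Cyp26a1 and Cyp26c1 both oxidise retinoic acid to inactive forms. Cyp26a1 had 31.7 and 32.9 FPKM in E14 GFP+ cells against 0.535 and 18.7 FPKM in E14 GFP- cells. At E18 it had 35.04 and 38.6 FPKM in GFP+ cells against 10.4 and 9.11 FPKM in GFP- cells, and at P2 15.6 and 36.5 FPKM against 14.4 and 5.82 FPKM. GFP+ cells were above GFP- cells in all 3 comparisons without overlap. The log2 differences were 2.60 at E14, 1.82 at E18 and 1.28 at P2, each with an SE of 1.001 (limma, adjusted p = 0.301, 0.243 and 0.546). Cyp26c1, at a mean of 2.42 FPKM over the 12 libraries, was also above without overlap at all 3 ages. It had 2.33 and 1.19 FPKM in E14 GFP+ cells against 0.0384 and 0.844 FPKM in E14 GFP- cells, and 2.19 and 4.28 FPKM in P2 GFP+ cells against 1.48 and 1.08 FPKM in P2 GFP- cells. Its E18 libraries lay farthest apart, at 6.09 and 6.16 FPKM in E18 GFP+ cells against 1.47 and 1.89 FPKM in E18 GFP- cells (log2 1.42 ± 0.36; limma, adjusted p = 0.0680).

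Rarb encodes a retinoic acid receptor and is itself a classic target of retinoic acid. It had 9.64 and 10.5 FPKM in E18 GFP+ cells against 7.50 and 7.39 FPKM in E18 GFP- cells, and 9.53 and 9.02 FPKM in P2 GFP+ cells against 5.60 and 4.78 FPKM in P2 GFP- cells. The sorts were narrowly clear of each other at both ages, with log2 differences of 0.39 ± 0.42 and 0.73 ± 0.42 (limma, adjusted p = 0.539 and 0.426). At E14 they overlapped, with 6.93 and 1.99 FPKM in GFP+ cells beside 5.80 and 10.1 FPKM in GFP- cells. In GFP+ cells P2 read above E14 by a log2 of 1.08 ± 0.42 (limma, adjusted p = 0.295), and by 0.37 ± 0.17 without both E14 libraries numbered 2 (limma, adjusted p = 0.233). Rarb ranged over 1.99 to 10.5 FPKM in all, and its neighbours in the order of mean level, Stra6 at 16.9 FPKM and Cyp26c1 at 2.42 FPKM, overlapped it in single libraries. Over the 10 libraries without both E14 libraries numbered 2, Stra6 averaged 2.62 FPKM, Cyp26c1 2.70 FPKM and Rarb 7.67 FPKM.

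The DNA beside the starts of Rarb and Cyp26a1 is shown because both hold the element that retinoic acid receptors are known to bind, a direct repeat of a 6-base unit with 5 bases between. The search took the unit AGGTCA with any of 3 variants, which read AGTTCA in one, GGTTCA in another and GGGTCA in the last, on both strands, in the 250 bases upstream of RefSeq starts. The stretches lie at chr14:16575507-16575535 on the minus strand and at chr19:37697770-37697798 on the plus strand (RefSeq, GRCm38.p6), with the repeat in capitals.
Rarb: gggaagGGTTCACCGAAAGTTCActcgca
Cyp26a1: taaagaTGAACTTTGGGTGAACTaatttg
In Cyp26a1 the repeat runs on the opposite strand, where it reads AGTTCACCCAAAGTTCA. Such a repeat is in 29 of the 32851 promoters (0.0883%), and of the 11 promoters searched these 2 hold it. The 11 belong to all of the genes but Crabp2 and Aldh1a3. With 2 bases between the units the repeat was in 57 promoters and with 1 base in 54, none of the 11 among them. The Rarb stretch lies 59 to 31 bases upstream of the RefSeq start and inside an exon of a longer annotated transcript. The Cyp26a1 stretch lies 38 to 10 bases upstream. Its repeat lies outside the transcripts of the gene, while the stretch as printed overlaps an annotated exon.

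**Figure D2:**
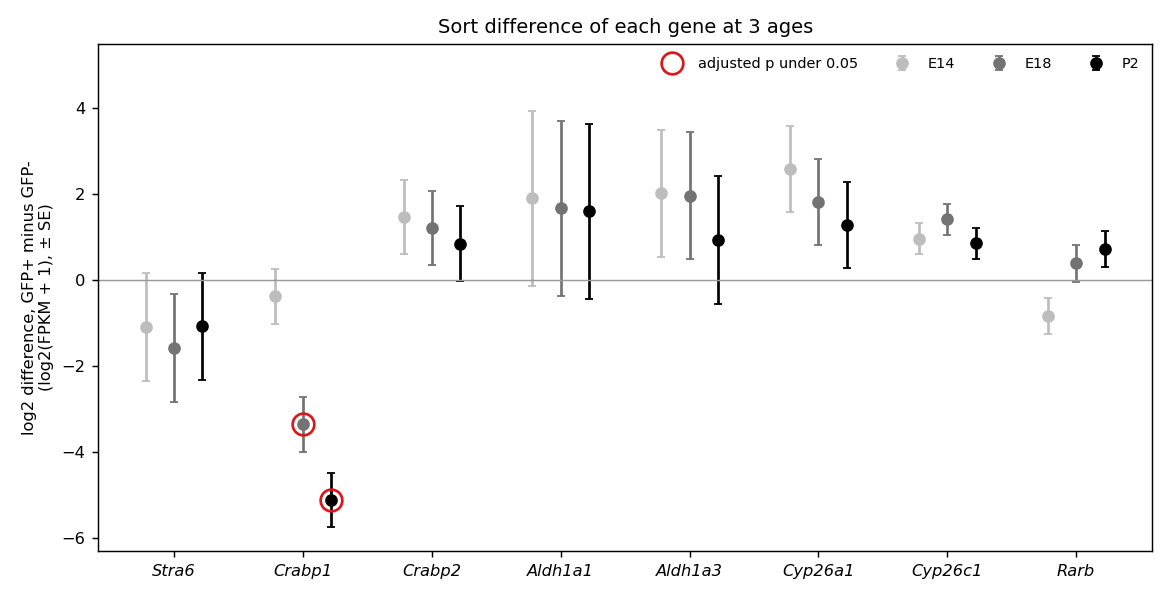
Log2 difference of GFP+ from GFP- cells at E14, E18 and P2 for the 8 tested genes, with bars of 1 SE from limma. Crabp1 lies at -3.35 at E18 and -5.12 at P2, and Cyp26a1 lies between 1.28 and 2.60 at the 3 ages.

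Counted over the 8 tested genes, 6 had both E18 GFP+ libraries above both E18 GFP- libraries and 2 had both below, where 39.6% and 39.4% of all genes did. At P2 it was 4 above and 2 below, against 34.5% and 32.4% of all genes. At E14 it was 2 above (18.7% of all genes) and 0 below (15.9%). No gene of the 8 was called between the sorts at E14, as 0 of 14276 genes were by limma, of which 2246 had an unadjusted p under 0.05. Without both E14 libraries numbered 2, where the lone E14 samples are assumed to vary like the other groups, 7 of the 8 were called at E14, 7 at E18 and 5 at P2, against 49.3%, 50.4% and 33.0% of all genes. With and without those 2 libraries, the GFP+ minus GFP- difference at E14 was 1.90 and 3.36 for Aldh1a1, 2.03 and 4.70 for Aldh1a3, 1.47 and 2.27 for Crabp2, 2.60 and 4.41 for Cyp26a1, and -1.09 and -1.28 for Stra6 (limma, adjusted p = 0.301 to 0.628 with them, 3.86e-05 to 0.0237 without). With all libraries each has the SE given for its gene at E18. The median difference of the 8 genes was 1.22 at E14, 1.32 at E18 and 0.86 at P2, and that of all genes was 0.00 at E18 and P2.

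By age in GFP+ cells, 5 of the 8 genes had both P2 libraries below both E14 libraries (Crabp1, Crabp2, Stra6, Aldh1a1 and Aldh1a3) and Rarb had both above, against 27.2% below and 29.5% above over all genes. In GFP- cells 3 were below (Crabp2, Stra6 and Rarb; 18.6% of all genes) and 2 above (Crabp1 and Cyp26c1; 21.8%). Between P2 and E18, 5 were below in GFP+ cells (Crabp1, Crabp2, Aldh1a3, Cyp26c1 and Rarb; 40.1% of all genes) and 2 above (Stra6 and Aldh1a1; 34.5%), and in GFP- cells 4 were below (Crabp2, Stra6, Aldh1a3 and Rarb; 36.9%) and 2 above (Crabp1 and Aldh1a1; 33.8%). With both E14 libraries numbered 2 left out, 4 of the 8 were called for P2 against E14 in GFP+ cells and 6 in GFP- cells (8.19% and 45.8% of all genes), 4 in either sort for P2 against E18 (34.5% and 42.0%), and 1, Crabp1, in the interaction (2.93%). Both kinds of age comparison share their P2 libraries. With all libraries, the median difference of the 8 genes for P2 against E14 was -2.67 in GFP+ and -1.25 in GFP- cells. That of all genes was 0.00 and 0.03. Both medians rest in part on the E14 libraries numbered 2. Without those libraries the GFP- differences ran both ways, at 1.57 for Aldh1a1, 1.34 for Crabp1 and 0.33 for Aldh1a3. They were -2.37 for Crabp2 and -1.79 for Stra6. Differences between the sorts in these age changes were tested only from E18 to P2, as the interaction, which with all libraries called none of the 8.

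Across the 12 libraries the levels of some of the genes ran alike on the log2 scale. This is a description over libraries that share their sort and age. Crabp2 and Aldh1a3 had a Pearson's r of 0.909 over 12 libraries and 0.989 over the 8 of E18 and P2, and Cyp26a1 and Cyp26c1 had 0.783 and 0.941. Crabp1 and Stra6 had 0.451 over 12 libraries and 0.912 over the 8. Other pairs changed sign without E14. Stra6 and Aldh1a1 had 0.651 over 12 libraries and -0.951 over the 8, and Crabp2 and Stra6 had 0.610 and -0.303. The matches that follow use all 12 libraries, among them both E14 libraries numbered 2. Among 11186 genes with a level of at least 5 FPKM in a library, the 3 most like Crabp1 were Rimbp2 (r = 0.950), Tbkbp1 (0.927) and Wbscr17 (0.916), and those most like Crabp2 were Gdf6 (0.973), Sdc1 (0.963) and Cldn1 (0.956). Stra6 ran most like Filip1 (0.988), Tert (0.983) and Lpar2 (0.983). Aldh1a1 was matched by Gramd3 (0.991), Mest (0.988) and Mlec (0.979), and Aldh1a3 by Taf1d (0.971), Rassf3 (0.970) and Lpar1 (0.968). For Cyp26a1 they were Kif20b (0.989), Nsl1 (0.987) and Hmmr (0.987), and for Cyp26c1 Polh (0.982), Tgm2 (0.982) and Plekhf1 (0.980). Rarb had looser matches in Ednrb (0.879), Anxa2 (0.839) and Spon1 (0.796).

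Of 36 other genes of retinoid handling in the RNA table, 25 passed the filter, 13 of 24 carriers and enzymes and all 12 receptors and cofactors. The 3 with the highest mean level were Fabp5, a carrier of fatty acids and retinoic acid, at 106 FPKM, the corepressor Ncor1 at 97.3 FPKM and the alcohol dehydrogenase Adh5 at 80.4 FPKM. None was called between the sorts at any age. Between P2 and E14, 1 rose in GFP+ cells, the retinol carrier Rbp7, at 4.01 and 2.19 FPKM at P2 against 0.140 and 0.150 FPKM at E14 (log2 1.80; limma, adjusted p = 0.0281). In GFP- cells Rdh12, a photoreceptor enzyme that reduces retinaldehyde, rose by a log2 of 2.25 (limma, adjusted p = 0.0286) and the coactivator Ncoa1 by 1.93 (limma, adjusted p = 0.0342). The nuclear receptor Ppard read higher at P2 than at E18 by a log2 of 2.29 in GFP+ and 2.44 in GFP- cells (limma, adjusted p = 0.00933 and 0.00578). Against E14 it was not called, at 0.71 and 1.21 (limma, adjusted p = 0.478 and 0.102). Between P2 and E18, Rbp7 rose by 1.32 in GFP+ cells and Rdh12 by 2.50 in GFP- cells (limma, adjusted p = 0.0272 and 0.0125). The make-up of the E18 libraries cannot be told apart from age here either.

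In chromatin, the clearest change was at Stra6, which lost accessibility in progenitors, with the step in its values between E14 and E16.5. Its first start lies in the mm9 region chr9:57971895-57981894, plus strand, 10 kb centred on the transcript start. Counts scaled to the library (CPM, for a library of standard size) in that region were 41.2 at E10, 49.7 and 45.6 at E12.5, 48.0 and 52.5 at E14, 18.4 and 16.8 at E16.5, 14.4 and 13.9 at E18, 14.6 and 9.36 at P0, and 13.2 and 23.1 at P2. Every library up to E14 was above every library from E16.5 on. P2 differed from E14 by a log2 of -1.49 ± 0.14 (edgeR quasi-likelihood test, adjusted p = 4.51e-14), and P0 from E12.5 by -1.95 ± 0.16 (edgeR, adjusted p = 3.97e-17). P2 replicate 2, the higher of the pair, has a lower ratio of counts at starts to those in the flanks over all regions (12.2) than any library but E10 (6.40), and the difference of P2 from E14 was -1.93 without it and -1.12 without P2 replicate 1.

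Stra6 has 3 more starts, at 261, 4987 and 5577 bp from the first, and their regions overlap, so the 4 are not independent. All 4 were lower at P2 than at E14 (log2 -1.49 to -0.92, or -1.12 to -0.48 without P2 replicate 1 and -1.93 to -1.51 without P2 replicate 2) and at P0 than at E12.5 (-1.95 to -1.79). Over the stage ranks from E10 to P2 the 4 regions fell by 0.34 to 0.28 in log2 per stage, the first at -0.34 ± 0.06 (edgeR, adjusted p = 0.000925). They were the 4 of 13 regions of the 9 genes called in this trend, where 10.1% of 27902 regions were. Without P2 replicate 2 the trend called 6 of the 13 and 60.9% of all regions, and without any other 1 library 4 to 6 of the 13 and 4.92% to 13.4% of all regions. Counts over the exons of Stra6 moved the same way, with P2 below E14 by a log2 of -0.81 ± 0.19 (edgeR, adjusted p = 0.00261), -0.37 without P2 replicate 1 and -1.33 without P2 replicate 2. P0 was below E12.5 over exons by -1.63 ± 0.25 (edgeR, adjusted p = 3.51e-05).

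Within the region, windows of 200 bp put much of the signal at the start itself. The window centred 100 bp upstream of the first Stra6 start averaged 4.004 CPM at E12.5, 5.90 at E14, 1.32 at E16.5, 0.938 at E18, 0.843 at P0 and 0.903 at P2. A window 3100 bp upstream averaged 3.64 CPM at E12.5, 4.07 at E14, 0.898 at E16.5, 0.748 at E18, 0.288 at P0 and 0.417 at P2. Both windows were low from E16.5 on, as the whole region was. They were picked after their values were seen, so they carry no test.

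The DNA at the first Stra6 start is shown because it lies at the start whose region lost counts. These are the 250 bases upstream of the RefSeq start (GRCm38.p6, chr9:58128838-58129087, plus strand), which lie in an intron of longer annotated transcripts, with the 1 match to GGGCGG, on the opposite strand, in capitals. The RefSeq starts of Stra6 have the same spacing as those of the mm9 file.
Stra6: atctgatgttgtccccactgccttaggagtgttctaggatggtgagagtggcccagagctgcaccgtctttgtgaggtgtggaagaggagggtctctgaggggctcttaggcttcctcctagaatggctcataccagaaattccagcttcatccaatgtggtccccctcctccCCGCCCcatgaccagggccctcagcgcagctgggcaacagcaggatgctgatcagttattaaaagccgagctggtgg

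**Figure D3:**
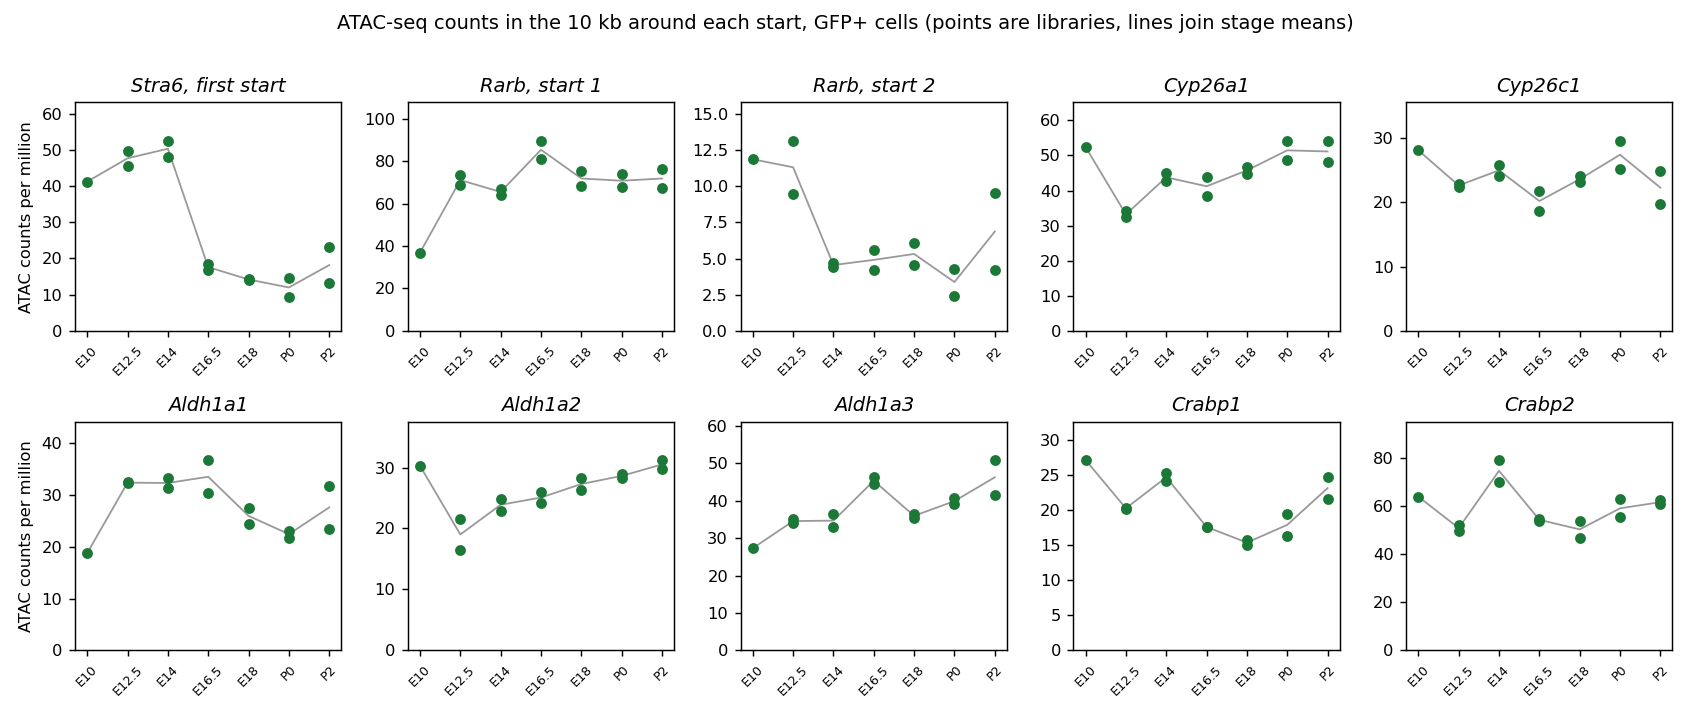
CPM in the 10 kb around starts of the 9 genes in GFP+ cells, by stage from E10 to P2; each point is 1 ATAC library. Stra6 lies at 41.2 to 52.5 CPM up to E14 and at 9.36 to 23.1 CPM from E16.5, and the first Rarb start lies at 64.1 to 89.7 CPM in every library after E10.

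The RNA of Stra6 in GFP+ cells was low at the stages at which its start had few counts, with 0.320 to 0.534 FPKM at E18 and P2. At E14, where the region was open in both ATAC libraries, RNA read 3.60 and 61.0 FPKM. RNA at E12.5, E16.5 and P0 and ATAC of GFP- cells were not analysed here.

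Cyp26a1 was more accessible at P0 than at E12.5, a contrast that called 42.0% of all genes over exons and 61.9% of all regions. Its stage trend was not called over exons or in the start region (edgeR, adjusted p = 0.0583 and 0.154). Its difference of P2 from E14 was not called in either (edgeR, adjusted p = 0.273 and 0.167). Over its exons CPM were 48.7 at E10, 31.6 and 30.7 at E12.5, 55.5 and 48.7 at E14, 47.4 and 54.6 at E16.5, 57.3 and 55.6 at E18, 69.4 and 63.3 at P0, and 59.6 and 60.1 at P2. Both E12.5 libraries were below all others. P0 was above E12.5 by a log2 of 1.10 ± 0.16 over exons (edgeR, adjusted p = 2.29e-05) and by 0.64 ± 0.13 in the start region at chr19:37767298-37777297 (mm9, plus strand; edgeR, adjusted p = 6.75e-05). The E10 library, whose ratio of counts at starts to flanks stands at 6.40 against 12.2 to 28.6 in the other libraries, is 1 sample and takes no part in this contrast. The neighbouring Cyp26c1, at chr19:37755170-37765169 on the same strand of mm9, stayed within 18.7 to 29.6 CPM in its start region over all 13 libraries, and over its exons was lower at P2 than at E14 (log2 -0.48; edgeR, adjusted p = 0.0119), a call lost without E14 replicate 2.

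The synthesis genes changed by smaller amounts. Aldh1a2, whose RNA stayed near 0 in progenitors, had 21.6 and 16.5 CPM at E12.5, 22.9 and 24.9 at E14, 28.3 and 29.0 at P0 and 31.2 and 29.8 at P2 in its start region (mm9 chr9:71058596-71068595, plus strand). P0 was above E12.5 by 0.58 ± 0.13 (edgeR, adjusted p = 0.000209), a call lost in the central 2 kb, and P2 above E14 by 0.35 (edgeR, adjusted p = 0.0240), lost without either E14 library. A window 1700 bp downstream of the start, picked after its values were seen, averaged 0.179 CPM at E12.5, 0.389 at E14, 1.06 at E16.5, 1.43 at E18, 1.47 at P0 and 1.40 at P2. Over its exons neither difference passed (log2 0.10 for P0 against E12.5 and 0.45 for P2 against E14; edgeR, adjusted p = 0.748 and 0.0831), nor did the trend of its start region (edgeR, adjusted p = 0.131).

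Aldh1a1, at mm9 chr19:20671472-20681471 on the plus strand, had 21.7 and 23.1 CPM at P0 against 32.3 and 32.4 CPM at E12.5 in its start region (log2 -0.53 ± 0.14; edgeR, adjusted p = 0.000721). Over its exons P2 was above E14 (log2 0.79 ± 0.19; edgeR, adjusted p = 0.00428), so start and exons did not move together, and the exon call was lost without E14 replicate 1. Aldh1a3, at mm9 chr7:73567363-73577362 on the minus strand, had 50.9 and 41.6 CPM at P2 against 32.9 and 36.5 CPM at E14 (log2 0.42 ± 0.12; edgeR, adjusted p = 0.00696), a call also lost without E14 replicate 1. Its start region thus had more counts at P2 than at E14, while its RNA in GFP+ cells read lowest at P2. Over its exons this difference did not pass (log2 0.35; edgeR, adjusted p = 0.0605), nor did the trend of the region (edgeR, adjusted p = 0.0583). Its highest window, 100 bp upstream of the start, was not highest at P2. That window averaged 7.31 CPM at E14, 9.84 at E16.5, 8.10 at E18, 9.10 at P0 and 7.59 at P2.

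Rarb has 2 start regions, both on the minus strand of mm9, which differed. The first, chr14:17402990-17412989, was open at every stage, with 36.9 CPM at E10 and 64.1 to 89.7 CPM in the 12 later libraries. The second, chr14:17909845-17919844, had 11.9 CPM at E10, 9.46 and 13.2 at E12.5 and 2.44 to 9.54 CPM from E14 on. P0 was below E12.5 there by a log2 of -1.71 ± 0.39 (edgeR, adjusted p = 0.000238), and in its central 2 kb by -1.09, which did not pass (edgeR, adjusted p = 0.127). Over the exons of Rarb, P2 was below E14 by -0.49 ± 0.14 (edgeR, adjusted p = 0.0107), a call lost without E14 replicate 2.

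With all libraries in the fit, the binding proteins passed no ATAC test, and all ATAC tests compared stages within GFP+ cells. Their RNA calls were between the sorts for Crabp1 and between ages in GFP- cells for Crabp2. ATAC of GFP+ cells alone has no counterpart to those comparisons. Crabp1, at mm9 chr9:54607555-54617554 on the plus strand, had 25.3 and 24.2 CPM at E14, 15.1 and 15.7 at E18 and 21.6 and 24.7 at P2 in its start region. Crabp2, at mm9 chr3:87747615-87757614 on the plus strand, had 70.1 and 79.0 CPM at E14, 46.7 and 53.7 at E18 and 60.6 and 62.5 at P2, and was among the 2 most open of the 13 regions in every library. Inside that region the parts ran apart, in windows again picked after their values were seen. The window 100 bp upstream of the Crabp2 start averaged 3.51 CPM at E12.5, 7.10 at E14, 3.92 at E16.5, 3.20 at E18, 3.60 at P0 and 3.62 at P2. The window 3700 bp upstream averaged 1.07 CPM at E12.5, 1.23 at E14, 2.16 at E16.5, 2.45 at E18, 4.02 at P0 and 4.26 at P2. Of the 3 ages with RNA, the distal window was highest at P2, where Crabp2 RNA in GFP+ cells was lowest.

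**Figure D4:**
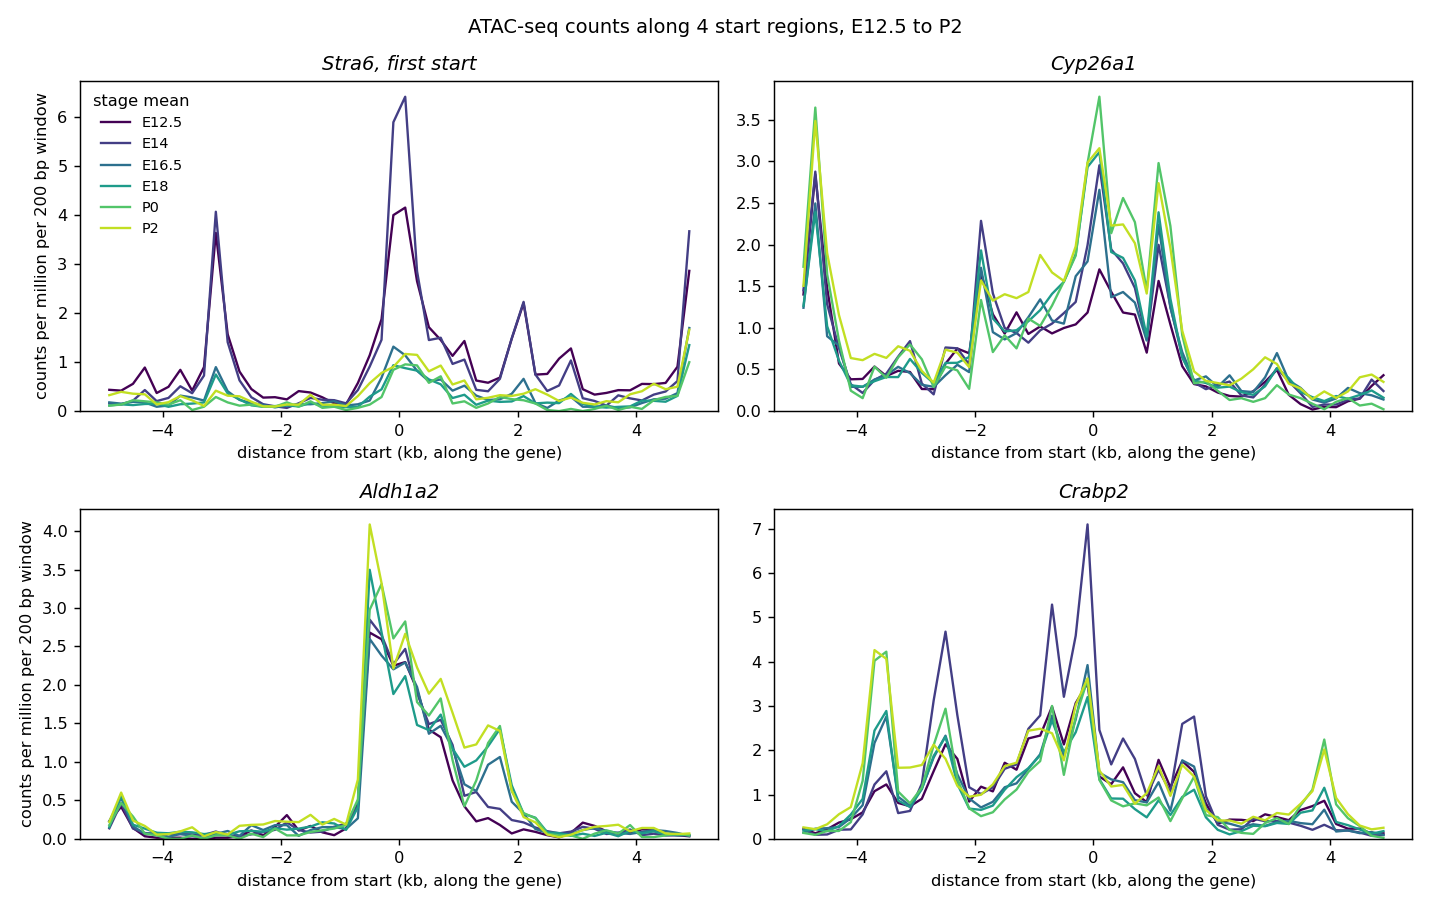
Stage means of CPM in 200 bp windows by distance from the start, from E12.5 to P2, for Stra6 (first start), Cyp26a1, Aldh1a2 and Crabp2. At Stra6 the window 100 bp upstream lies at 4.004 and 5.90 CPM at E12.5 and E14 and at 0.843 to 1.32 CPM later, and at Crabp2 the window 3700 bp upstream climbs to 4.26 CPM at P2.

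Counted over all 9 genes, the calls stand beside the background as follows. Between P2 and E14, 6 of their 13 start regions were called, 4 of them the overlapping Stra6 regions, against 31.2% of all regions, and 4 of 9 genes over exons against 26.1%. Without P2 replicate 1, which like E10 has no counts on 60 unplaced genes that together hold counts in every other library, these were 9 regions against 75.6% and 4 genes against 59.8%. Without P2 replicate 2 they were 9 regions against 28.8% and 7 genes against 30.4%. Between P0 and E12.5, 8 of 13 regions were called against 61.9%, and 2 of 9 genes over exons against 42.0%. In the trend over stages, 1 of 9 genes was called over exons, Stra6, against 5.61%, and this call was lost without either library of E12.5, E18 or P0 or without P2 replicate 1 (edgeR, adjusted p = 0.0519 to 0.0902).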

How the data were processed

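RNA was deposited by the authors as FPKM, a unit inferred from the values (library sums 383872 to 504845). The program behind them is not given in the sources used here. ATAC tables were deposited as raw count values over exons (1474790 to 15915391 per library) and in windows of 200 bp around starts (11176227 to 94662422), on mm9. The submitters' processing notes name Bowtie2, HISAT2, Picard 2.10.7, SAMtools 1.5, featureCounts 1.5.3 and bedtools 2.26.0, with no role given.

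RNA was tested with limma 3.58.1 (R 4.3.3) on log2(FPKM + 1), with an intensity trend, over 6 groups of 2 libraries (14276 genes with at least 1 FPKM in 2 libraries). ATAC counts were tested with edgeR 4.0.16 (TMM, quasi-likelihood) over 7 stages and over stage rank, on 22097 genes and on 27902 regions of 50 windows. Benjamini-Hochberg adjustment was used, with a threshold of 0.05. An ATAC SE is |log2| divided by the square root of F. Window CPM use the region total.

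Genes and lists were chosen with earlier results of these data known. The text names all 9 genes, of the retinoid lists those called in RNA (some are not reported here) and the 3 with the highest mean FPKM, and the 3 genes most alike to each of the 8 tested. A log2 RNA difference of the 9 is given where called or at least 1 in size. Scripts were tested on simulated data. Alternatives are given in the closing section.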

Additional observations from a re-analysis of the deposited data

Results flagged for a closer look

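Crabp1 was picked out because its age changes ran in opposite directions in the 2 sorts. From E18 to P2 both GFP+ libraries were lower and both GFP- libraries higher, and the interaction was -1.76 in log2 (limma, adjusted p = 0.9996), which was not called. Between P2 and E14 the change in GFP+ cells minus that in GFP- cells was -4.74 in log2, and this difference was not tested. Stra6 had both P2 libraries above both E18 libraries in GFP+ cells and below in GFP- cells, with an interaction of 0.50 that was not called (limma, adjusted p = 0.9996), on levels of 0.320 to 0.534 FPKM in GFP+ cells. Rarb was above E14 at P2 in GFP+ cells and below in GFP- cells, a difference of 1.57 in log2 that was not tested. The P2 against E14 changes of Crabp1 without both E14 libraries numbered 2 were -1.91 in GFP+ and 1.34 in GFP- cells, and that of Rarb in GFP+ cells was 0.37. The E14 values rest in part on the libraries numbered 2, and the E18 values on libraries with a high histone share.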

How the results depend on the processing

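In RNA, counts of genes called among the 8 moved with the libraries in the fit. Counts over all genes moved too, so the counts here do not set the 8 genes apart. Without both E14 libraries numbered 2, the counts were 7, 7 and 5 for the sorts at E14, E18 and P2, 4 and 6 for P2 against E14 in GFP+ and GFP- cells, 4 and 4 for P2 against E18, and 1 for the interaction, where Crabp1 was called. With only the libraries of each contrast they were 8 at E18, 4 at P2 and 3 for P2 against E18 in either sort. Over all 14276 genes these fits called 7945 at E18 and 2746 at P2. Between P2 and E18 they called 5311 in GFP+ and 4459 in GFP- cells. In the same setting 1 of the 8 was called for the interaction (420 of all genes) and 0 for P2 against E14 in GFP- cells (0 of all genes). At E18 the count was 0 with a pseudocount of 0.1 and 2 with quantile scaling, and for P2 against E14 in GFP- cells it was 0 without the filter on low values. Replicate numbers share only a number (correlation of deviations 0.362, 0.111 and -0.558 at E14, E18 and P2), and a replicate block gave 0 calls at E18, P2 and for P2 against E14 in GFP- cells. Leaving out 1 library gave 0 to 5 calls at E14, 0 to 4 at E18, 0 to 1 at P2, 0 to 4 for P2 against E14 in GFP+ cells and 0 to 4 in GFP- cells, and 0 to 2 for P2 against E18 in either sort. In ATAC it gave 4 to 9 start regions and 2 to 7 genes over exons for P2 against E14, 8 to 11 regions for P0 against E12.5, 4 to 6 in the region trend, and 0 to 2 in the exon trend, where DESeq2 gave 2.

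Some uncalled E14 values turned round. The sort difference of Aldh1a1 at E14 was -0.20 without E14 GFP+ replicate 2 and -1.66 without E14 GFP- replicate 1, against 1.90 with all libraries (up to 5.47 in other settings). Aldh1a3 gave -0.80 without E14 GFP- replicate 1, against 2.03 (up to 4.86), and Stra6 gave 0.78 without E14 GFP+ replicate 1 and 0.60 without E14 GFP- replicate 2, against -1.09 (down to -2.97). For P2 against E14, Aldh1a1 gave 0.65 in GFP+ cells and 0.95 in GFP- cells under the replicate block, and 1.57 in GFP- cells without E14 GFP- replicate 2, with or without its GFP+ partner (limma, adjusted p = 0.00119 without both; lowest -5.56), where Aldh1a3 gave 0.33 (lowest -5.33). The cause was not tested. Of 660 single-gene RNA values, 554 kept direction and side of the threshold, as did 450 of 468 in ATAC, where no value of the 4 Stra6 regions lost its call. Many of the RNA values were uncalled with all libraries and stayed so. Of the called ones, Crabp1 lost its call in 10 of 20 alternatives at E18 and in 4 at P2. Crabp2 lost its call for P2 against E14 in GFP- cells in 11 of 20. Scaling on the genes that are neither histone, mitochondrial nor abundant noncoding ones shifted the median of all genes to -0.14 at E18 and 0.19 for P2 against E14 in GFP- cells. Unknown RNA depth leaves values under 1 FPKM without an error.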

Other observations

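Among genes of retinoid handling outside the 9, start regions were called both higher and lower in progenitors. The shares of all regions beside these counts join both directions, so the counts do not set these genes apart by direction. Of 50 start regions tested between P2 and E14, 13 were higher and 5 lower (edgeR, threshold 0.05), where 31.2% of all regions were called. Between P0 and E12.5, 13 were higher and 13 lower (61.9% of all regions called), and over the stage trend 7 rose and 1 fell (10.1%). The genes named here were picked from the called ones after their values were seen. Rbp7, the retinol carrier whose RNA rose with age, had a start region higher at P2 than at E14 by a log2 of 2.98. The start regions of the receptor Rarg were higher by 1.02 and 0.54, while those of Rxrg, a receptor of cones and ganglion cells, were lower at P0 than at E12.5 (log2 -1.93 and -1.01).

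Rxrg RNA read 0.538 and 0.494 FPKM in P2 GFP+ cells against 9.07 and 9.84 FPKM in P2 GFP- cells. At E18 it read 1.11 and 0.848 FPKM in GFP+ cells against 14.9 and 15.9 FPKM in GFP- cells. The sorts did not overlap at either age, and no sort difference of this gene was called by limma.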
